A study of Mus musculus with 12 samples.

Results

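Guanylate-binding proteins (GBPs) and immunity-related GTPases (IRGs) are 2 families of interferon-inducible GTPases with which mouse cells defend themselves from inside. GBPs are large GTPases that gather on the membranes of pathogen vacuoles and on bacteria, and several of them feed inflammasome activation. IRGs fall into effectors, which coat and break up vacuoles, and regulators of the Irgm type, which sit on host membranes and hold the effectors inactive there. In macrophages both families are textbook targets of interferon-gamma, which acts through GAS elements and induces IRF1, a factor that in turn binds ISRE-like elements.

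The 10 genes described are Gbp2, Gbp3, Gbp5, Gbp7, Gbp8, Gbp9, Irgm1, Irgm2, Igtp and Iigp1. They were chosen by family name with earlier results of these libraries known, so every fold change and call given for them below, in all 3 comparisons, is a description and not independent evidence that they moved. Of the 10 genes, 9 had a row among the 35275 genes of the count tables, and all 9 were among the 12849 genes that passed the filter on low counts. Gbp5, which promotes inflammasome assembly, had no row and its level was not analysed here.

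The libraries were poly(A) RNA-seq of wildtype mouse bone marrow cells grown for 6 days with M-CSF, IL-4 and IL-10, a cytokine mix that gives bone marrow-derived macrophages (BMDMs) of the alternatively activated kind. Each of 3 groups held 4 libraries: DMSO, the solvent control, olaparib, a PARP inhibitor, and MNA, the nicotinamide derivative methyl-nicotinamide. All 3 groups shared the cytokines, and each agent was present throughout the 6 days. The labels do not tie a library to a donor mouse, so p-values measure the spread between these libraries, which may in part be technical. Donors of bone marrow were 6 to 10 weeks old, and the doses of both agents and the strain in these cultures were not given in the sources used here.

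Total counts ranged from 21146291 to 31446849 per library. One library went against its label over all genes: MNA replicate 2 lay at −36 on the first principal component (49.8% of the variance), where the DMSO libraries lay between −43.7 and −33.6 and the other 3 MNA libraries between 59.9 and 63.4. Values of the 9 genes and counts of called genes are therefore given with and without it, and other genes are named again where a call against DMSO changed without it. Levels are given as CPM, counts scaled to a library of 1000000. The 7 markers of the labelled cell type, macrophages, summed to 3860 to 5000 CPM with DMSO, 8450 to 10200 with olaparib, 3590 in MNA replicate 2 and 5530 to 7390 in the other MNA libraries. They did not all move alike. With olaparib 6 of the 7 had a positive log2 fold change against DMSO, among them Lyz2, with means of 1920 CPM with DMSO and 6010 with olaparib. Cd68 went the other way, with means of 1230 CPM with DMSO and 839 with olaparib. The 10 markers of T and NK cells summed to 3.51 to 6.73 CPM with DMSO and 12.1 to 24 with olaparib. They summed to 4.19 in MNA replicate 2 and 42.4 to 61 in the other 3 MNA libraries, with no marker at 0 throughout a group. The rises in these sums lay mostly in single genes, Klrb1c with olaparib and Gzmb with MNA. Klrb1c averaged 2.77 CPM with DMSO, 13.3 with olaparib and 1.47 in those 3 MNA libraries, and Gzmb 1.35, 2.78 and 41.8. The part of these markers in the results below was not tested. In these bulk samples, a gene's level cannot tell more expressing cells from more RNA per cell.

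The described genes lie in clusters, and their upstream sequences carry the letters of the elements named above. On GRCm38, Gbp2 (chr3:142620602-142638008), Gbp3 (chr3:142560026-142573209), Gbp5 (chr3:142493978-142522344) and Gbp7 (chr3:142530342-142550149) stand in 1 cluster on the plus strand of chromosome 3, with Gbp2b between Gbp3 and Gbp2. Gbp8 (chr5:105014150-105139540) and Gbp9 (chr5:105077630-105139539) overlap on the minus strand of chromosome 5. Irgm1 (chr11:48861968-48871683, minus strand) lies on chromosome 11, as do Igtp (chr11:58199556-58207591) and Irgm2 (chr11:58199618-58222782), which share the plus strand and 162 exon bases. The 250 bases before the RefSeq start of each gene (GRCm38.p6) were searched on both strands for TTCNNNGAA, the letters of a GAS element, and for GAAANNGAAA, the letters of an ISRE. Of the 10 genes 7 had such a window, and Gbp8, Gbp9 and Iigp1 were not searched.

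The ISRE letters stood in a window of 7 of 7 genes, against 2.98% of all 32851 windows. A gene counted if any of its windows matched, and Gbp3 had another window (chr3:142560106-142560355) without a match. The GAS letters stood in 4 of 7 (Gbp5, Gbp7, Igtp and Irgm2), against 7.02% of all windows, and both stood in the same 4 genes, against 0.33% of all windows. Windows of Gbp7, Igtp and Irgm2 are printed 5′ to 3′ on the gene's strand because they hold both elements and no annotated exon, with the matches in capitals.
Gbp7 (chr3:142530086-142530335, plus strand): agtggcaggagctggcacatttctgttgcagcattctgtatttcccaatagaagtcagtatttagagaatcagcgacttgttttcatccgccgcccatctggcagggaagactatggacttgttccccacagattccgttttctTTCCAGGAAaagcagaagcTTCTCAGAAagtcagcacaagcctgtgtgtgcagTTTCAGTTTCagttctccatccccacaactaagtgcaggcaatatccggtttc
Igtp (chr11:58199306-58199555, plus strand): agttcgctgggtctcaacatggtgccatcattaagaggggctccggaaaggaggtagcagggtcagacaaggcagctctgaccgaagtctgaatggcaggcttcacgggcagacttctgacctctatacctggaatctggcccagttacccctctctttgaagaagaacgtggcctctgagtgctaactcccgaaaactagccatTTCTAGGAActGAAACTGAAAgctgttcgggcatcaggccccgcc
Irgm2 (chr11:58214727-58214976, plus strand): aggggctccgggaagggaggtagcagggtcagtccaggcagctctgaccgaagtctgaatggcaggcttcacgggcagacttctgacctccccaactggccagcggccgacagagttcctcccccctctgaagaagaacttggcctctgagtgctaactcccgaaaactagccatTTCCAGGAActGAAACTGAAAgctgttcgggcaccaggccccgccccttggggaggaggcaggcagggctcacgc

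In the Igtp and Irgm2 windows the GAS letters are followed 2 bases later by the ISRE letters, and the windows share an unbroken run of 55 bases, so they are not independent examples. The same arrangement, looked for after these windows were seen, occurred in 5 of all 32851 windows (0.0152%), those of Igtp, Irgm2, Gm12185, Tgtp1 and Tgtp2, all of them IRG genes and some of them recent copies of each other. In Gbp7 the 2 GAS matches (from −106 to −98 and from −87 to −79 relative to the start) lie upstream of the ISRE match (−53 to −44). Irgm1 held 2 overlapping ISRE matches, at −30 to −21 and −24 to −15, and no GAS match. All 250 bases of the Irgm1 window lie in annotated exons, as do 61 bases of the Gbp2 window. Gbp2 held 1 ISRE match, TTTCACTTTC on the opposite strand at −59 to −50, and Gbp3 held 2 that overlap between −45 and −30. A match is a run of letters, not a measured binding site.

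In DMSO-treated BMDMs the genes were expressed at very different levels, compared here as CPM per kilobase of exon. Gbp2 was highest at 16.2 ± 2.49 (SD, n = 4), followed by Irgm1 at 6.08 ± 0.645, Gbp3 at 4.38 ± 0.75, Igtp at 2.49 ± 0.401, Irgm2 at 1.87 ± 0.17 and Gbp7 at 1.51 ± 0.268. Gbp8 (0.171 ± 0.0907), Gbp9 (0.119 ± 0.0796) and Iigp1 (0.0617 ± 0.0294) were near the lower end of detection. From Gbp2 down to Irgm2 every DMSO library of a gene was above every DMSO library of the next, whereas Irgm2 and Gbp7 overlapped, as did Gbp8, Gbp9 and Iigp1. With olaparib the first 6 genes kept this order, Gbp2 still standing above all others in each library. In the 3 MNA libraries other than replicate 2, the mean of Gbp7, 14.9 ± 1.53 (SD, n = 3), was above that of Igtp, 11.5 ± 2.31, and that of Iigp1, 3.21 ± 1.56, above those of Gbp9 and Gbp8, although the libraries of Gbp7 and Igtp and those of Iigp1 and Gbp9 overlapped.

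**Figure D1:**
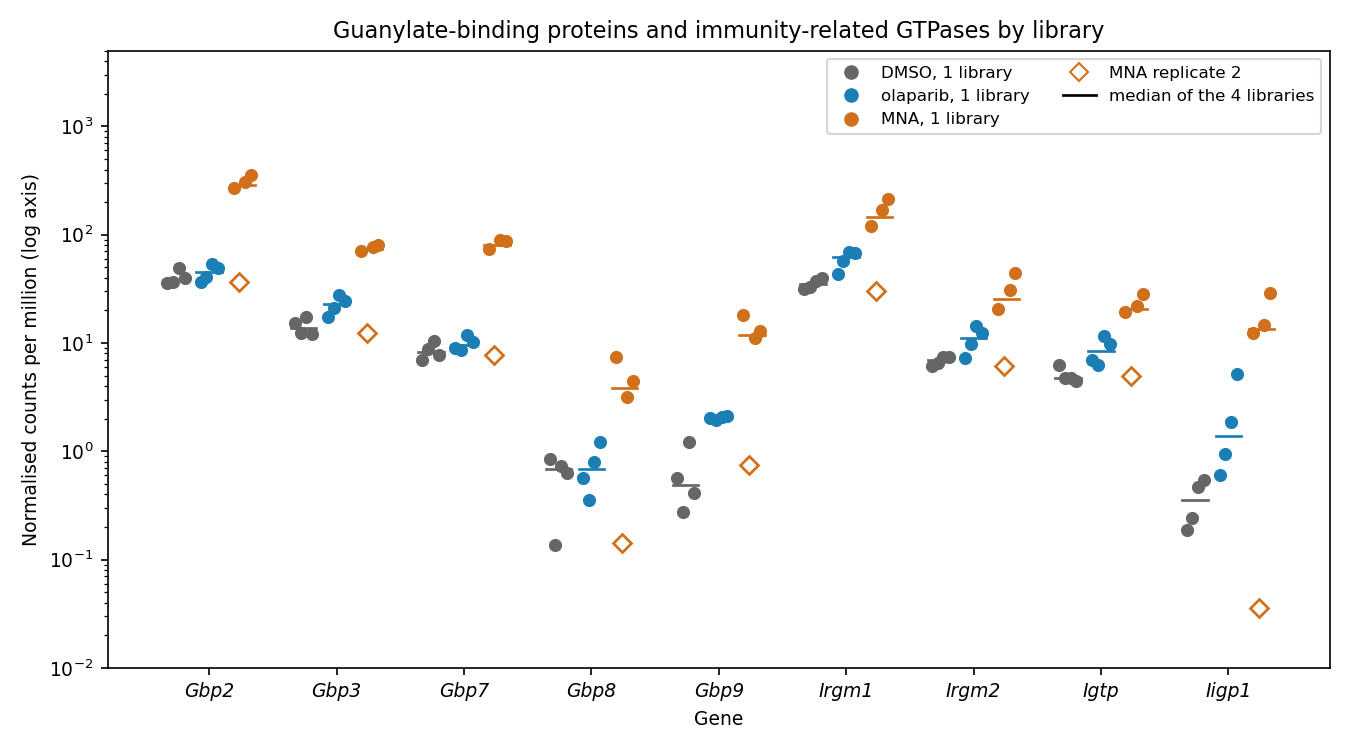
Normalised CPM (log axis) of the 9 genes with a row, 1 point per library, for DMSO (grey), olaparib (blue) and MNA (orange), with the median of 4 libraries as a bar. MNA replicate 2, the open diamond, lies within the DMSO libraries for 6 genes and below them for Irgm1, Irgm2 and Iigp1, while the other 3 MNA libraries lie above all DMSO and olaparib libraries.

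Gbp2, a prenylated GBP that is recruited to Toxoplasma vacuoles, was the most abundant of the genes. It measured 36.1, 36.7, 49.6 and 40.2 CPM in DMSO replicates 1 to 4 and 36.4, 41.0, 53.1 and 49.7 CPM in the olaparib replicates. In MNA replicates 1, 3 and 4 it reached 271, 306 and 356 CPM, and in MNA replicate 2 it was 36.5 CPM. The olaparib and DMSO libraries overlapped, and 3 of 4 MNA libraries lay far above both. Its log2 fold change with MNA was 2.57 ± 0.49 (SE) over all 12 libraries and 2.93 ± 0.14 without MNA replicate 2, a fold of 5.96 or 7.63. With olaparib it was 0.15 ± 0.47.

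Gbp7, which brings subunits of the NADPH oxidase to bacterial vacuoles, behaved alike at a lower level. DMSO libraries held 6.94, 8.84, 10.4 and 7.75 CPM and olaparib libraries 8.90, 8.61, 11.7 and 10.2 CPM. MNA libraries held 73.7, 7.74, 89.6 and 87.5 CPM in the order of their numbers. Olaparib and DMSO again overlapped, with a log2 fold change of 0.21 ± 0.52, while MNA gave 2.92 ± 0.54, or 3.29 ± 0.13 without MNA replicate 2. Some reads of Gbp7 could belong to Gm43802, a processed pseudogene inside it, with which it shares 8.8% of its words of 150 bases, the read length.

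Gbp3, from the same cluster, separated the 3 groups. Its libraries held 15.2, 12.5, 17.3 and 12.2 CPM with DMSO and 17.4, 21.2, 27.6 and 24.4 CPM with olaparib. They held 71.4, 12.5, 77.0 and 79.6 CPM with MNA. Each olaparib library was above each DMSO library, by little for the lowest of them, and below each MNA library but replicate 2. The log2 fold change was 0.66 ± 0.42 with olaparib and 2.07 ± 0.43 with MNA (2.41 ± 0.14 without MNA replicate 2).

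Gbp8 and Gbp9, neighbours on chromosome 5, were low in DMSO. Gbp9 had counts of 12, 8, 36 and 13 in the DMSO libraries, or 0.563, 0.275, 1.21 and 0.413 CPM. With olaparib it measured 2.05, 1.93, 2.06 and 2.13 CPM, the closest agreement among 4 libraries of a group for any of the 9 genes. With MNA it measured 18.3, 0.752, 11.1 and 12.8 CPM. Every olaparib library thus exceeded every DMSO library, with a log2 fold change of 1.72 ± 0.74, and MNA gave 4.11 ± 0.74, or 4.50 ± 0.31 without MNA replicate 2.

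Gbp8 measured 0.844, 0.138, 0.737 and 0.635 CPM with DMSO and 0.565, 0.354, 0.799 and 1.22 CPM with olaparib, and these groups overlapped. MNA replicates 1 to 4 held 7.36, 0.143, 3.17 and 4.46 CPM. The log2 fold change was 0.34 ± 0.84 with olaparib, falling to −0.03 without olaparib replicate 4, and 2.69 ± 0.80 with MNA, or 3.10 ± 0.45 without MNA replicate 2. Short words of 31 bases that also occur in other genes make up 31.1% of the Gbp8 transcripts and 18.3% of the Gbp9 transcripts, but no word of 150 bases does in either. Gbp8, Gbp9 and their neighbour Gbp4 share up to 61 bases of exon.

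The 3 regulatory IRGs had similar fold changes. Irgm1, which is needed for macrophages to contain mycobacteria and for normal autophagy, had 31.4, 33.1, 37.2 and 39.6 CPM with DMSO and 43.1, 57.8, 68.7 and 67.6 CPM with olaparib. With MNA it had 121, 30.2, 170.1 and 216 CPM. Its olaparib libraries stood wholly above the DMSO libraries and wholly below the 3 MNA libraries other than replicate 2. The log2 fold changes were 0.75 ± 0.41 with olaparib and 1.93 ± 0.42 with MNA, or 2.25 ± 0.18 without MNA replicate 2.

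Irgm2, which restrains the non-canonical inflammasome, measured 6.19, 6.57, 7.44 and 7.43 CPM with DMSO and 7.21, 9.75, 14.4 and 12.4 CPM with olaparib. Here the lowest olaparib library lay within the DMSO libraries. With MNA it measured 20.6, 6.09, 30.6 and 44.7 CPM. Igtp, also called Irgm3, measured 6.24, 4.71, 4.76 and 4.44 CPM with DMSO and 7.03, 6.33, 11.7 and 9.75 CPM with olaparib. With MNA it measured 19.3, 4.91, 21.9 and 28.4 CPM. Its olaparib libraries lay above all DMSO libraries, the closest pair being 6.33 against 6.24 CPM. With MNA the log2 fold changes of Irgm2 and Igtp were 1.88 ± 0.44 and 1.89 ± 0.41, or 2.20 ± 0.24 and 2.21 ± 0.20 without MNA replicate 2. With olaparib they were 0.66 ± 0.44 and 0.79 ± 0.40.

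Iigp1, also called Irga6, lies on chromosome 18 and encodes an effector IRG that coats the Toxoplasma vacuole, and it had the largest fold of the 9 genes. It had 4, 7, 14 and 17 counts in the DMSO libraries, 17, 24, 44 and 149 counts in the olaparib libraries, and 301, 1, 379 and 725 counts in the MNA libraries. These counts were 0.188 to 0.540 CPM with DMSO, 0.601 to 5.19 CPM with olaparib and 12.4 to 29.2 CPM in MNA replicates 1, 3 and 4. All olaparib libraries were above all DMSO libraries, and olaparib replicate 4 stood well above the other 3 olaparib libraries. The log2 fold change was 5.23 ± 1.18 with MNA (5.63 ± 0.62 without MNA replicate 2) and 2.53 ± 1.19 with olaparib, the latter falling to 1.58 when olaparib replicate 4 was left out.

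Across the 9 genes, MNA against DMSO gave 9 genes called higher at an adjusted p under 0.05 (edgeR's quasi-likelihood test with Benjamini-Hochberg adjustment over 12849 genes), where 16.3% of all tested genes were called higher. Adjusted p-values ran from 0.0142 to 0.0306, and the median log2 fold change was 2.57, against 0 over all tested genes. With all 4 MNA libraries 0 of 9 genes separated from DMSO, against 6.24% of all genes, since MNA replicate 2 stayed among or below the DMSO libraries. Without that library 9 of 9 genes had each MNA library above each DMSO library, against 27.2% of all genes, and 9 of 9 were called higher, against 27.2%. The median log2 fold change was then 2.93. Without MNA replicate 4 only 4 were called, Gbp2, Gbp3, Gbp7 and Gbp9, and without MNA replicate 3 the count was 6. When the DMSO and MNA libraries were fitted alone, without the olaparib libraries to estimate the spread, edgeR called 0 of 9 genes and 0 genes in all, with adjusted p-values of 0.064 to 0.0787 for the 9, all of which had an unadjusted p under 0.05, as did 4728 genes in all.

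Olaparib against DMSO gave 0 of 9 genes called higher, against 14.3% of all tested genes, with adjusted p-values from 0.0994 to 0.835. DESeq2 also called 0, and 1 gene had an unadjusted p under 0.05. All 9 log2 fold changes were positive, with a median of 0.66 against 0 over all genes, and 5 of 9 genes (Gbp3, Gbp9, Irgm1, Igtp and Iigp1) had each olaparib library above each DMSO library, against 20.7% of all genes. These calls turned on MNA replicate 2, which belongs to neither group but enters the estimate of the spread that all groups share. Without it 6 genes were called higher, against 22.5% of all genes, namely Gbp3, Gbp9, Irgm1, Irgm2, Igtp and Iigp1, while the log2 fold changes moved by no more than 0.01 as rounded. Gbp2, Gbp7 and Gbp8 were not called in either fit.

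Olaparib against MNA gave 4 of 9 genes called lower with olaparib, Gbp2, Gbp3, Gbp7 and Gbp9, against 10.9% of all tested genes. DESeq2 called 8, and edgeR called 2 when any 1 olaparib library, MNA replicate 1 or MNA replicate 4 was left out, with Gbp2 and Gbp7 called each time. The median log2 difference was −2.35, from −2.71 ± 0.53 for Gbp7 to −1.10 ± 0.39 for Igtp. No gene had all olaparib libraries below all 4 MNA libraries, against 9.69% of all genes. Without MNA replicate 2 that held for 9 of 9 genes, against 22.8% of all genes, 9 were called lower, against 20.7%, and the median was −2.75. The comparisons share libraries, so their values stand side by side as descriptions.

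**Figure D2:**
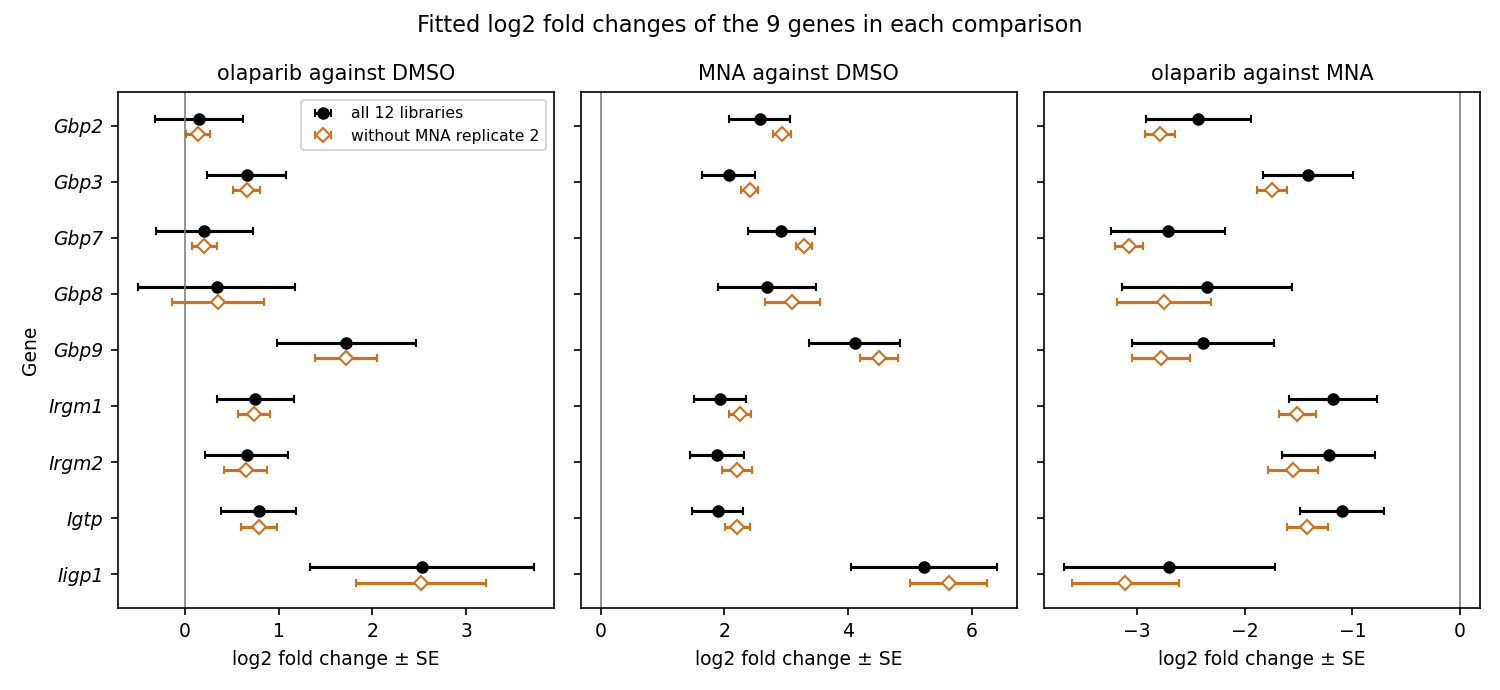
Log2 fold change ± SE of the 9 genes in the 3 comparisons, from the fit of all 12 libraries (filled circles) and from the fit without MNA replicate 2 (open diamonds). Without that library the olaparib values hardly move while their errors shrink, and the MNA values rise, for Gbp2 from 2.57 ± 0.49 to 2.93 ± 0.14.

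The fold changes with both agents stand side by side as follows. For Gbp2 and Gbp7 the log2 fold changes were 0.15 and 0.21 with olaparib beside 2.57 and 2.92 with MNA. For Gbp3 they were 0.66 beside 2.07, for Gbp9 1.72 beside 4.11, and for Irgm1, Irgm2 and Igtp 0.66 to 0.79 beside 1.88 to 1.93. Over the 4 described IRGs the median was 0.77 with olaparib and 1.91 with MNA, and over the 5 described GBPs 0.34 and 2.69. No test compared the genes or the families in this.

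Ratios between libraries of the same number showed the same picture, computed as differences in log2 CPM after adding 2 counts. For Irgm1 olaparib replicates 1 to 4 exceeded their DMSO counterparts by 0.45, 0.80, 0.88 and 0.77. For Gbp2 the differences were 0.01, 0.16, 0.10 and 0.31. MNA replicate 2 differed from DMSO replicate 2 by −0.01 for Gbp2, −0.13 for Irgm1 and −1.53 for Iigp1, where MNA replicate 4 differed from DMSO replicate 4 by 3.14, 2.44 and 5.60. Iigp1 and Gbp9 were the exceptions among the genes for MNA replicate 2. Gbp9 had a difference of 1.26 there, as DMSO replicate 2 was the lowest of its DMSO libraries.

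The rest of both families was listed by name, and with the Gvin genes, very large inducible GTPases, the list had 33 genes, of which 25 were tested. Of the 16 tested genes that are not among those described above, 11 were called higher with MNA (median log2 fold change 2.20) and 5 with olaparib (median 1.42), and none lower, where 16.3% and 14.3% of all genes were called higher. Olaparib against MNA gave 3 called lower, against 10.9% of all genes. Without MNA replicate 2 the counts were 14 with MNA, 12 with olaparib and 13 lower with olaparib than with MNA, against 27.2%, 22.5% and 20.7% of all genes. The 7 that olaparib added were Gbp4, Gbp11, Tgtp2, Ifi47, Gm12185, 9930111J21Rik1 and Gm4951. Gbp2b, also called Gbp1, which stands beside Gbp2, measured 35.7 to 52.2 CPM with DMSO, 34.6 to 64.4 CPM with olaparib, and 532, 36.9, 481 and 555 CPM with MNA. Like Gbp2, it overlapped between DMSO and olaparib, and together these genes held the largest shares of the summed family level per kilobase, Gbp2 22.4% to 26.4% of it and Gbp2b 20.8% to 26.2% in the DMSO libraries. That sum was 58 to 74.7 CPM per kilobase with DMSO, 74.8 to 116 with olaparib, 58.2 in MNA replicate 2 and 441 to 528 in the other MNA libraries.

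Among the other GBPs, Gbp4 had a log2 fold change of 5.51 ± 1.13 with MNA and 2.31 ± 1.17 with olaparib, and Gbp11 2.12 ± 0.54 and 1.48 ± 0.56. Both had few counts in the DMSO libraries, 1 to 16 for Gbp4 and 1 to 5 for Gbp11, and Gbp11 had only 10 to 17 with MNA. Gbp4 was called lower with olaparib than with MNA (−3.20 ± 0.94), as were Gbp2b (−3.01 ± 0.59) and Tgtp2 (−2.59 ± 0.79), an effector IRG also called Irgb6. Tgtp2 rose by 4.46 ± 0.90 with MNA on the log2 scale, and Ifi47, also called Irgd, by 2.15 ± 0.44. Gm12250, also called Irgb10, which with the GBPs opens bacterial membranes, was called higher with both agents, at 2.24 ± 0.50 with MNA and 1.58 ± 0.50 with olaparib. The other IRG genes called higher with both were Gm5431 (2.48 ± 0.46 and 1.72 ± 0.45), Irgc1 (2.54 ± 0.62 and 2.13 ± 0.62) and 9930111J21Rik2 (1.37 ± 0.30 and 0.95 ± 0.30). Gm12185 (2.47 ± 0.49) and 9930111J21Rik1 (1.21 ± 0.30) were called higher with MNA and not with olaparib (1.36 ± 0.50 and 0.73 ± 0.30). Both were called higher with each agent once MNA replicate 2 was left out, and lower with olaparib than with MNA (−1.45 ± 0.27 and −0.75 ± 0.13).

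A few relatives were not called higher with MNA in the fit of all 12 libraries. Irgq, a distant IRG homologue, measured 26.4 to 32.3 CPM with DMSO, 24.2 to 27.5 CPM with olaparib and 26.2 to 32.8 CPM with MNA, with log2 fold changes of −0.14 ± 0.09 and 0.09 ± 0.09. Of the Gvin genes, Gm1966 was called higher with olaparib (2.03 ± 0.69) and not with MNA (0.69 ± 0.71), without a call between the agents (1.34 ± 0.67), and this held without MNA replicate 2. Gvin1 and Gm4070 were called with neither agent, but without that library both were called higher with MNA (0.89 ± 0.25 and 0.96 ± 0.20). Gm4951, an IRG on chromosome 18 like Iigp1, had log2 fold changes of 3.33 ± 1.17 with MNA and 2.49 ± 1.21 with olaparib. It was called with neither (adjusted p = 0.0502 and 0.141, edgeR), but with both without MNA replicate 2 (3.76 ± 0.86 and 2.49 ± 0.89, adjusted p = 0.00219 and 0.0367, edgeR). Values of Gvin1 and Gm4070 are uncertain, as 96.2% and 93.4% of their 150-base words occur in other genes, mostly in each other, and so are those of Tgtp2 and both 9930111J21Rik genes.

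**Figure D3:**
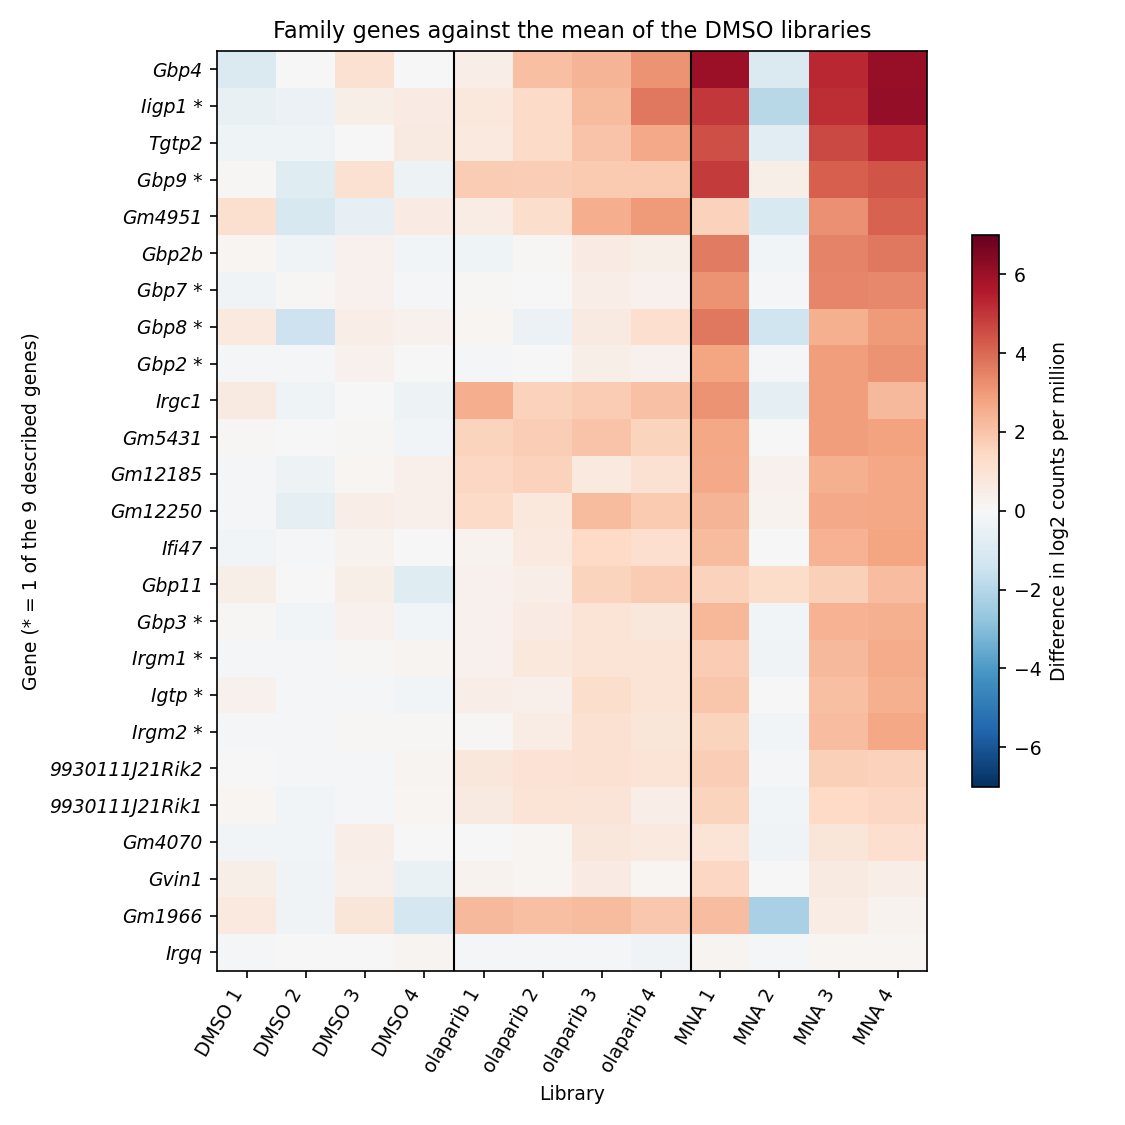
Difference in log2 CPM (2 counts added) from the mean of the 4 DMSO libraries for the 25 tested family genes, ordered by their log2 fold change with MNA, in each of 12 libraries; red is higher and blue lower. MNA replicates 1, 3 and 4 are red for nearly all genes, MNA replicate 2 lies near DMSO for most genes but below it for some low genes, Gm1966 and Iigp1 among them, and above it for Gbp11, and Gbp2, Gbp2b and Gbp7 are nearly white with olaparib, where Irgc1, Gm5431 and Gm1966 are not.

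Of the interferon ligands listed with the pathway, Ifnb1, Ifna1, Ifna2, Ifna4, Ifnl2 and Ifnl3 had 0 counts in all 12 libraries. A count of 0 allows up to 3 counts per library. Ifng, which T and NK cells mainly make, had 1, 0, 4 and 1 counts with DMSO, 3, 0, 1 and 12 with olaparib, and 28, 3, 36 and 29 with MNA. It was thus near 0 in DMSO and highest in the same 3 MNA libraries as the GTPases. Its highest olaparib value was in replicate 4. Iigp1, Gbp8 and Gbp9 were also highest in that olaparib library, whereas Gbp2, Gbp3, Gbp7, Irgm1, Irgm2 and Igtp were highest in olaparib replicate 3. Any link between these levels was not tested. The log2 fold change of Ifng was 4.03 ± 0.99 with MNA (adjusted p = 0.0192, edgeR) and 1.38 ± 1.21 with olaparib (adjusted p = 0.411).

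Other transcripts of cytotoxic lymphocytes rose in the same 3 MNA libraries. Gzmb, granzyme B, had 747, 1123 and 1275 counts there, 28 in MNA replicate 2, 6 to 81 with DMSO and 15 to 123 with olaparib. Prf1, perforin, had 94, 127 and 122 counts there and at most 19 elsewhere. Nkg7 had 48, 51 and 55 counts there and at most 14 elsewhere. Of the markers that define T cells, Cd3e had 0 to 2 counts with DMSO, 0 to 26 with olaparib and 12 to 19 in the 4 MNA libraries, replicate 2 included, and was called higher with both agents (4.16 ± 1.02 with MNA and 3.58 ± 1.07 with olaparib), while Trac stayed at no more than 12 counts in any library. Cd3g had at most 14 counts and Cd8a at most 34 in any library, and Cd4 was called with neither agent. Ncr1, which marks NK cells, had no more than 11 counts in any library, and Klrb1c, another NK marker, went the other way, at 22 to 55 counts with MNA, 54 to 100 with DMSO and 299 to 458 with olaparib. The B cell markers Cd79a (3 to 13 counts with DMSO, 10 to 40 with MNA) and Ms4a1 (1 to 13 and 7 to 24) were also called higher with MNA. The part of such cells in the levels of the GTPases was not tested.

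MNA replicate 4 also held transcripts of red cells and neutrophils, with 1200 counts of Hba-a1 and 517 of S100a9. MNA replicates 1 and 3 had 0 counts of Hba-a1 and 27 and 70 of S100a9, and DMSO replicate 1 had 57 and 51. Gbp2, Gbp3, Gbp7 and Gbp9 were still called higher with MNA when MNA replicate 4 was left out. The calls of Gbp8, Irgm1, Irgm2, Igtp and Iigp1 were lost without it, with adjusted p-values of up to 0.0933. Gbp8 lost its call without any 1 of the other MNA libraries but replicate 2, and without any 1 of the DMSO libraries, and Irgm1 and Irgm2 lost theirs without MNA replicate 3.

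Of the 28 genes of the interferon pathway, 22 were tested, of which 12 were called higher and 1 lower with MNA, against 16.3% and 12.3% of all genes, and 6 higher and 2 lower with olaparib, against 14.3% and 12.8%. Without MNA replicate 2, 17 were called higher and 1 lower with MNA, against 27.2% and 26.9%, and 10 higher and 2 lower with olaparib, against 22.5% and 21.2%. The genes added were Ifngr2, Irf8, Irf9, Nlrc5 and Usp18 with MNA, and Jak2, Ptpn6, Pias1 and Ciita with olaparib. The values that follow come from the fit of all 12 libraries unless said otherwise. The receptor chain Ifngr1 was called higher with both, at 0.60 ± 0.11 with olaparib and 0.32 ± 0.11 with MNA on the log2 scale, and Ifnar1, of the type I receptor, with MNA (0.28 ± 0.09, beside 0.16 ± 0.09 with olaparib). Ifngr2 had 0.07 ± 0.07 and 0.15 ± 0.07. The kinases Jak1 (−0.12 ± 0.06 and −0.06 ± 0.06) and Jak2 (0.23 ± 0.09 and −0.16 ± 0.09) were not called in either comparison, and Tyk2 was called higher in both (0.28 ± 0.09 and 0.34 ± 0.09).

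Of the 6 transcription factors, 2 were called lower with olaparib than with MNA, Irf1 and Irf8 (−0.60 ± 0.16), against 10.9% of all genes. Without MNA replicate 2 the count was 4, against 20.7%. Irf1, an early target of interferon-gamma, measured 46.9 to 69.3 CPM with DMSO, 40.8 to 61.7 CPM with olaparib, and 199, 50.8, 297 and 303 CPM with MNA. It was called higher with MNA (1.99 ± 0.41) and overlapped between olaparib and DMSO (−0.10 ± 0.40), as Gbp2 and Gbp7 did. Stat2 measured 41.9 to 48.4 CPM with DMSO, 68.2 to 92.1 CPM with olaparib, and 105, 46.1, 106 and 108 CPM with MNA. It was called higher with both, at 0.82 ± 0.22 with olaparib and 1.02 ± 0.22 with MNA. Irf9, its partner in the type I interferon response, was called with olaparib (0.40 ± 0.10, beside 0.23 ± 0.10 with MNA). Between the agents Irf9 was not called (0.17 ± 0.10). Batf2 was called with MNA (1.04 ± 0.26, beside 0.31 ± 0.26 with olaparib). Against MNA, olaparib gave a log2 difference of −2.09 ± 0.41 for Irf1 (adjusted p = 0.0046, edgeR) and of −0.19 ± 0.21 for Stat2 (adjusted p = 0.557). Stat2 was called lower with olaparib than with MNA once MNA replicate 2 was left out (−0.41 ± 0.08, adjusted p = 0.00141), as was Batf2 (−0.96 ± 0.15).

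Ciita, the coactivator of MHC class II genes, measured 5.08 to 8.51 CPM with DMSO, 10.1 to 17.3 CPM with olaparib, and 88.0, 5.05, 51.4 and 48.3 CPM with MNA. Its log2 fold change was 2.83 ± 0.59 with MNA and 0.95 ± 0.57 with olaparib, and only the former was called, but without MNA replicate 2 both were (3.21 ± 0.24 and 0.95 ± 0.23). Among the inhibitors, Socs1 was called higher with MNA (1.35 ± 0.33) and had 0.22 ± 0.33 with olaparib, while Socs3 was called lower with both, by −2.55 ± 0.42 with olaparib and −1.46 ± 0.40 with MNA. Usp18, which dampens type I interferon signalling, was called higher with olaparib (1.43 ± 0.21) and had 0.44 ± 0.21 with MNA. For Usp18 the olaparib libraries were also called higher than the MNA libraries (0.99 ± 0.21, adjusted p = 0.00639, edgeR). Ptpn2 was called lower with olaparib (−0.42 ± 0.07), and Ptpn6 and Pias1 higher with MNA (1.25 ± 0.26 and 0.43 ± 0.10).

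**Figure D4:**
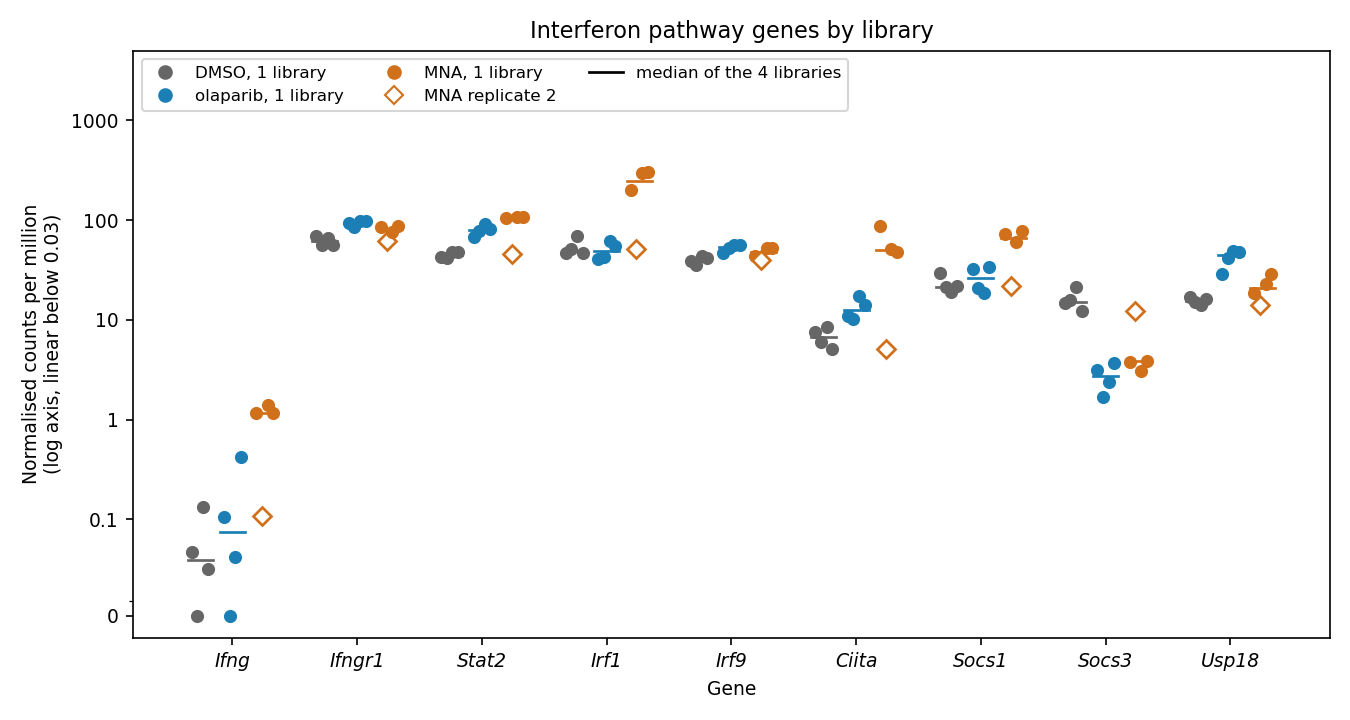
Normalised CPM (log axis, linear below 0.03) of 9 interferon pathway genes, 1 point per library, with MNA replicate 2 as an open diamond and the median of 4 libraries as a bar. Ifng, Irf1, Ciita and Socs1 are highest in MNA replicates 1, 3 and 4, Stat2 is also raised with olaparib, and Usp18 is highest with olaparib.

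Of 26 tested genes whose products act with the GTPases, 6 were called higher and 1 lower with MNA, against 16.3% and 12.3% of all genes, and 4 higher and 6 lower with olaparib, against 14.3% and 12.8%. Without MNA replicate 2, 7 were called higher and 6 lower with MNA, against 27.2% and 26.9%, and 7 higher and 6 lower with olaparib, against 22.5% and 21.2%. The genes added with MNA were Icmt, called higher, and Sqstm1, Atg7, Gabarap, Pggt1b and Rce1, called lower, and those added with olaparib were Casp1, Atg16l1 and Fnta, called higher. Among inflammasome genes Nlrp3 was called higher with both (1.37 ± 0.38 with MNA and 1.47 ± 0.38 with olaparib), as was Gsdmd, which forms pores (0.31 ± 0.10 and 0.39 ± 0.10). Casp1 was called higher with MNA (0.70 ± 0.13), and lower with olaparib than with MNA (−0.54 ± 0.13). Pycard, the adaptor ASC, was called higher with olaparib (0.95 ± 0.11), also against MNA (0.91 ± 0.11). Casp4, the mouse sensor of cytosolic LPS also called caspase-11, was called lower with olaparib (−0.83 ± 0.11) and stood at 0.00 ± 0.11 with MNA.

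The autophagy genes that place IRGs and GBPs on vacuoles were mostly not called. Of 11, Atg16l1 was called higher with MNA (0.18 ± 0.06), Map1lc3a higher with olaparib (0.23 ± 0.07) and Sqstm1 lower with olaparib (−0.76 ± 0.26). Sqstm1 had −0.73 ± 0.26 with MNA, and −1.19 ± 0.08 with a call when MNA replicate 2 was left out. Trim21, a ubiquitin ligase, was called higher with MNA (0.64 ± 0.17). Of the prenylation genes, whose products add the lipid anchor of some GBPs, Fnta was called higher with MNA (0.49 ± 0.14), and Fntb was called lower with both (−0.51 ± 0.13 with MNA and −0.47 ± 0.13 with olaparib). Pggt1b (−0.41 ± 0.08) and Rce1 (−0.32 ± 0.10) were called lower with olaparib, as was Arhgdia, a GDP dissociation inhibitor (−0.21 ± 0.06).

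Neighbours of the described genes were counted in the same way. Of 39 tested genes within 500 kb that are not on the family list, 8 were called higher and 5 lower with MNA. With olaparib 3 were called higher and 7 lower, and the median log2 fold changes were 0.05 with MNA and 0.03 with olaparib. Among the 39 is Gm43302, which shares 1792 exon bases with Gbp10 and 1726 with Gbp6. Gm43302 was called with neither agent (−0.12 with MNA and 1.25 with olaparib). Over all genes 16.3% and 12.3% were called higher and lower with MNA, and 14.3% and 12.8% with olaparib. Without MNA replicate 2 the counts were 10 higher and 9 lower with MNA, against 27.2% and 26.9% of all genes. They were 8 higher and 9 lower with olaparib, against 22.5% and 21.2%. Those called higher with MNA included Cd74, the MHC class II invariant chain (2.12), Synpo (2.24), Trim7 (1.64), 2010001A14Rik (1.58), Gm12247 (1.41), Psme2b (0.63), Sap30l (0.47) and Zfp672 (0.32). Trim7, Gm12247 and Rps14 were called higher with olaparib, at 1.24, 1.68 and 0.27. The genes called lower were Lrrc8b, Gm12254 and Rbm22 with MNA, Pkn2, Pdlim5, Zfp62, Gemin5 and Larp1 with olaparib, and Mgat1 and Tcof1 with both.

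Outside these families, the 5 tested genes whose profile over the 12 libraries was most like the mean standardised log2 CPM of the 9 genes included Apol7c, Tmem50b, Rfc5 and Tmem132a. Likeness was the root mean square difference from that mean profile, 0.151 to 0.170 for these 5 and 0.109 (Gbp3) to 0.382 (Gbp8) for the 9 genes themselves. Apol7c averaged 0.666 ± 0.274 CPM with DMSO, 1.26 ± 0.631 with olaparib and 36.9 ± 30.1 with MNA (SD, n = 4), with 0.358 CPM in MNA replicate 2. Tmem50b, Rfc5 and Tmem132a had the same order of groups with log2 fold changes of 0.80, 0.60 and 2.13 with MNA. These genes were picked for this likeness from 12849, so it is a description only.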

How the data were processed

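Per the labels and the study's methods, RNA was made into libraries with the Illumina Stranded mRNA Prep kit and sequenced as 150-base single reads. The authors aligned reads with STAR 2.5.2b to GRCm38.p5 and deposited 1 table of read counts per gene and library, not normalised; the strand setting is not given in the sources used here. Ensembl identifiers were given symbols and positions from GENCODE M21 (34490 matched, 785 did not). Upstream windows came from RefSeq (GRCm38.p6).

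Counts were fitted with edgeR 4.0.16 (R 4.3.3), quasi-likelihood, TMM, filterByExpr (minimum count 10, minimum total 15), all 12 libraries in 1 fit, group only, with Benjamini-Hochberg adjustment over all tested genes. CPM use TMM library sizes. DESeq2 1.42.0, other scalings, no filter, 2 groups alone and each library left out were alternatives. The scripts were tested on simulated data.

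Members and lists were chosen with earlier results of these data known. Named were all members, other tested family genes, called pathway and partner genes (and Ifng, Ifnb1, Ifngr1, Ifngr2, Jak1, Jak2, Irf1 and Socs1 always), genes most like the members, and called neighbours; lymphocyte, red cell and neutrophil transcripts, and genes whose call changed without MNA replicate 2, were named after their values were seen. A few genes that these rules take are not reported here. Deviations from group means correlated between olaparib and DMSO libraries of the same number (0.172 to 0.408 over 4 pairs), so the numbers pair those groups; adding the number as a block changed no call there.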

Additional observations from a re-analysis of the deposited data

Results flagged for a closer look

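For 27 sets of 4 libraries (9 genes in 3 groups), the gap of the lowest or highest library to the nearest other was examined. As a share of the range, it was set against Dixon's 95% critical value for 4 samples. That value was passed 5 times, each time by MNA replicate 2 as the lowest MNA library. The share was 0.88 for Gbp2 (36.5 CPM, the others 271 to 356), 0.941 for Gbp3 (12.5 CPM, the others 71.4 to 79.6), 0.92 for Gbp7 (7.74 CPM, the others 73.7 to 89.6), 0.84 for Gbp9 (0.752 CPM, the others 11.1 to 18.3) and 0.848 for Iigp1 (0.0358 CPM, the others 12.4 to 29.2). These sets share 1 library and are not independent. The genes were chosen with earlier results of these libraries known, so the 5 passes describe MNA replicate 2 and are not set against chance. Why MNA replicate 2 lies with the DMSO libraries cannot be told from these data.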

How the results depend on the processing

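In the main fit 16.3% of all tested genes were called higher with MNA, 14.3% higher with olaparib, and 10.9% lower with olaparib than with MNA. Counts below that stand without a share of all genes in the same direction describe the 9 genes only. With MNA, 9 genes were called higher with DESeq2, with RLE scaling, with library totals alone, without the filter and with the replicate number as a block. The count was 0 with DMSO and MNA fitted alone, where 0 genes were called in all, and 0 at an adjusted p under 0.01. It ran from 4 to 9 when each library was left out in turn, the lowest being without MNA replicate 4. With olaparib, 0 were called under those settings except 6 with the 2 groups alone and 6 with the block and without MNA replicate 2. With the 2 groups alone 5720 genes in all were called in either direction. Leaving out each library gave 0 to 6, the 6 being without MNA replicate 2, where 22.5% of all genes were called higher. Olaparib against MNA gave 4 called lower, 4 with RLE scaling, 5 with library totals alone, 5 without the filter and 8 with DESeq2. It gave 2 with the 2 groups alone, where 1808 genes in all were called in either direction, and 2 at an adjusted p under 0.01. The count was 4 with the block and 9 with the block and without MNA replicate 2. Leaving out each library gave 2 to 9, the 2 being without any 1 olaparib library, MNA replicate 1 or MNA replicate 4. The 9 were without MNA replicate 2, where 20.7% of all genes were called lower. With the block in that comparison Gbp3 was no longer called (adjusted p = 0.0505, edgeR) and Gbp8 was (0.0292). Deviations of same-numbered MNA libraries correlated at −0.009 to 0.277 with DMSO and at 0.07 to 0.392 with olaparib. In these comparisons 5 and 6 of 8 libraries correlated best with their own number. MNA replicate 2 enters the MNA means from which deviations were taken, so these values cannot decide whether the numbers pair the MNA libraries. The log2 fold change of Gbp8 with olaparib ran from −0.03 (without olaparib replicate 4) to 0.56 when each library was left out, the only change of sign among the 27 fold changes. Where the count moved, the cause was not tested. Gbp8 and Iigp1, with as few as 4 counts in DMSO or 1 in MNA replicate 2, are limited by depth.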
